A study of Mus musculus with 10 samples.

Results

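Small RNA of mouse sperm was sequenced after a high-fat or a control diet, and 5 mitochondrial tRNAs were examined here: mt_tRNA-Ile-GAT, mt_tRNA-Met-CAT, mt_tRNA-Trp-TCA, mt_tRNA-Asp-GTC and mt_tRNA-Lys-TTT. They were chosen by position, as the tRNAs that are read in the direction of the heavy-strand promoter between the isoleucine and the lysine gene, and they are 5 of the 22 mitochondrial tRNAs listed in the files. The rule for this set uses no measured value, but the set was chosen with earlier results of these data known. The CD-F0 group (n = 5) received a control diet with 10% of kcal as fat and the HFD-F0 group (n = 5) a high-fat diet with 42%, both from 4 weeks of age and for 10 weeks. All samples are mature sperm of C57BL/6J males, taken from the cauda epididymis and vas deferens, and F0 means that the males themselves ate the diet. The labels do not say whether a sample is 1 mouse or a pool, so p-values measure only the spread between these samples. RNA of 18 to 30 nt was cut from a gel, so full-length tRNAs were not sequenced and a read stands for a tRNA fragment. In such bulk samples, fewer cells of a type and less RNA per cell cannot be told apart.

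Both strands of the mitochondrial genome are transcribed as long precursors, in which tRNAs stand between the rRNAs and the coding genes like punctuation. RNase P cuts a precursor at the 5′ end of each tRNA, ELAC2 cuts at the 3′ end, and the enzyme TRNT1 then adds the letters CCA, which the genome does not encode and to which the amino acid is bound. Sperm keep their mitochondria in the midpiece, and fragments of tRNAs are among the most frequent small RNAs of mature sperm.

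The 5 genes lie on the plus strand of chromosome M in the GENCODE M21 annotation of GRCm38, and each is annotated as a mitochondrial tRNA gene of a single exon. Their sequences are shown since the reads are described by the end of the tRNA from which they come. Each is given 5′ to 3′ in the DNA letters of the GENCODE transcript, without the added CCA, and capitals mark the anticodon.
mt_tRNA-Ile-GAT: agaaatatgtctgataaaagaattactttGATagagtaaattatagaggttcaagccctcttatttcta
mt_tRNA-Met-CAT: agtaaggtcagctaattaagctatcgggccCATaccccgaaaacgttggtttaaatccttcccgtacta
mt_tRNA-Trp-TCA: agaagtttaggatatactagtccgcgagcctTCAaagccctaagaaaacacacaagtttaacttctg
mt_tRNA-Asp-GTC: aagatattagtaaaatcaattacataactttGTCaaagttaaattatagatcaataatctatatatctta
mt_tRNA-Lys-TTT: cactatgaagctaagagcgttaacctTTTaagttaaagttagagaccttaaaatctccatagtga

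mt_tRNA-Ile-GAT (gene mt-Ti, chrM:3706-3774) reads the isoleucine codons, shares its first 2 bases with the end of mt-Nd1 and its last 3 with the glutamine tRNA gene mt-Tq of the opposite strand. mt_tRNA-Met-CAT (mt-Tm, chrM:3845-3913) serves both to start translation, with a formylated methionine, and to place methionine inside proteins, and mt-Nd2 begins at the next base. mt_tRNA-Trp-TCA (mt-Tw, chrM:4950-5016) reads UGA, a stop codon in the nuclear code, as tryptophan, shares its first 2 bases with the end of mt-Nd2 and lies 1 base before the alanine tRNA gene mt-Ta of the opposite strand. mt_tRNA-Asp-GTC (mt-Td, chrM:6942-7011) brings aspartate and lies 1 base before mt-Co2. mt_tRNA-Lys-TTT (mt-Tk, chrM:7700-7764) brings lysine, stands 3 bases after mt-Co2 and 1 base before mt-Atp8, and in humans is the tRNA best known for mutations in MERRF syndrome. The lengths run from 65 to 70 bases. The GC content is lowest in the aspartate tRNA (17.1%) and highest in the methionine tRNA (44.9%), and 4 of the 5 begin with A while mt_tRNA-Lys-TTT begins with C. The 3 genome bases after mt_tRNA-Ile-GAT are GGA and those after mt_tRNA-Met-CAT are ATA, so that each differs from CCA at 2 of 3 positions. For the other 3 genes, the base after the tRNA lies between annotated transcripts and was not analysed here. The 2 bases that follow it are AT for mt_tRNA-Asp-GTC and mt_tRNA-Lys-TTT, which differ from the last 2 letters of CCA at both positions. For mt_tRNA-Trp-TCA they are TA, which differ at 1.

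The libraries held 29558751 to 32178088 clean reads each, and a level is given below as reads for every 1000000 clean reads (RPM). The 5 tRNAs together took 35.9% to 49.5% of the mitochondrial tRNA reads of a sample. Micro-RNA markers of 5 kinds of cells were all found in each group, with none at 0. The 6 markers of the germ line and sperm summed to 15362 to 18951 RPM in the CD-F0 group and 12397 to 23338 RPM in the HFD-F0 group, and 3 of the 6 had a higher mean in the HFD-F0 group. For the epididymal epithelium, whose 6 markers were all higher on average in the HFD-F0 group, the sums were 3969 to 6756 RPM among controls and 5520.2 to 9463 RPM after the high-fat diet. Markers of muscle (4 of 6 higher) ranged from 21352 to 29447 RPM and from 15876 to 36525 RPM, and those of blood and immune cells (6 of 7 higher) from 3686 to 5534 RPM and from 3249 to 6033 RPM. Among the muscle markers, mir-1a-1 and mir-1a-2 had nearly equal values, as did mir-133a-1 and mir-133a-2, so the 6 are not all separate. Most of the muscle sum was mir-143, with a median of 25586.5 RPM in the CD-F0 group where the sum had 26974 RPM. The liver marker mir-122 was at 3.45 to 101 RPM and 4.00 to 57.1 RPM. The part of these other cells in the differences described here was not tested.

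The 5 tRNAs differed widely in level. mt_tRNA-Lys-TTT had 87.5% to 94.0% of their reads in each sample, and mt_tRNA-Asp-GTC had from 6 to 147 reads. Per kilobase of gene length, the mean over all 10 samples was 27456 RPM for mt_tRNA-Lys-TTT, 1198 RPM for mt_tRNA-Met-CAT, 768 RPM for mt_tRNA-Trp-TCA, 331 RPM for mt_tRNA-Ile-GAT and 14.2 RPM for mt_tRNA-Asp-GTC. Each tRNA exceeded the next in this order beyond the spread over samples in an exact sign-flip test of the paired log2 levels (two-sided). For 3 of the 4 neighbouring pairs the order was the same in 10 of 10 samples (exact p = 0.00195, the smallest this test can give). mt_tRNA-Met-CAT stood above mt_tRNA-Trp-TCA in 9 of 10 samples (exact p = 0.00391), the exception being HFD-F0 sample 5. This is an order of sequenced fragments, and how evenly the 5 sequences were captured was not tested.

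The parts of the tRNAs from which the reads came differed just as much. A read is counted as a 5′ end, a 3′ end, a CCA end or, when it is none of these, as internal. In mt_tRNA-Lys-TTT, 5′ ends made up 93.7% to 96.2% of the reads in every sample, and internal reads most of the rest. In mt_tRNA-Met-CAT the reads were split between 5′ ends, with 38.7% to 65.5%, and internal reads, with 34.4% to 60.6%. mt_tRNA-Trp-TCA and mt_tRNA-Ile-GAT were mostly internal, with 72.2% to 84.4% and 72.0% to 91.1%. CCA ends made up 5.08% to 26.1% of the reads of mt_tRNA-Ile-GAT, whereas they took at most 3.42% in mt_tRNA-Trp-TCA, 0.771% in mt_tRNA-Lys-TTT and 0.631% in mt_tRNA-Met-CAT. Reads of 3′ ends without CCA were nearly absent, with 66 reads in all over the 5 tRNAs and the 10 samples, and a count of 0 allows up to 0.0932 to 0.101 RPM (3 reads of the library, counting error only). In mt_tRNA-Asp-GTC, 273 of 313 reads over all samples were internal and 23 were CCA ends, with a CCA share of 0% to 41.7% in samples of so few reads.

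**Figure D1:**
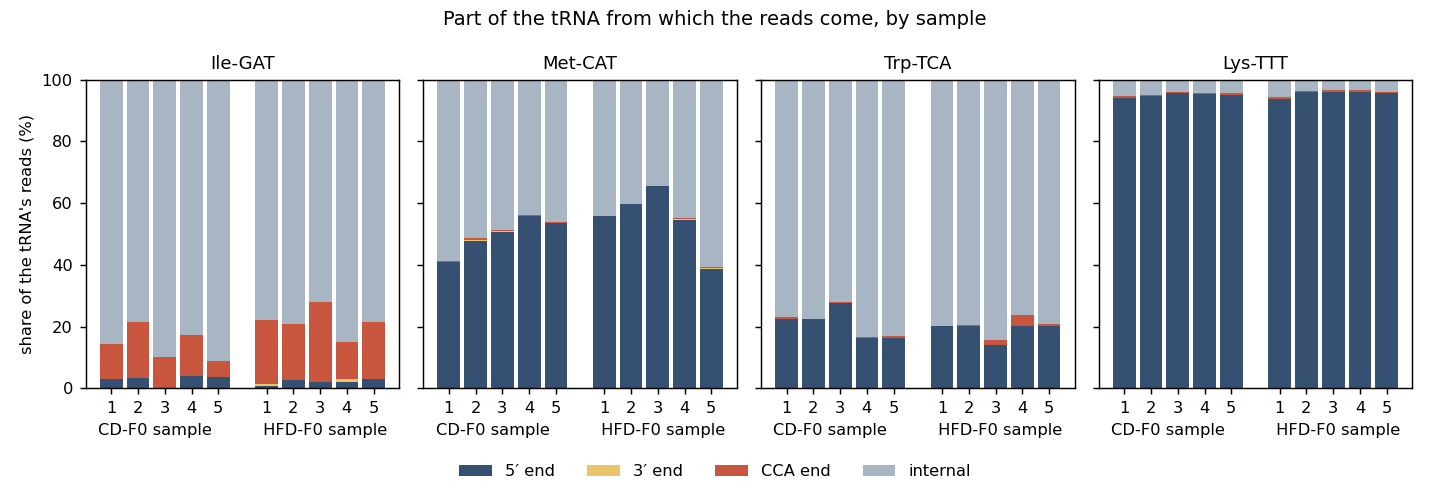
Stacked bars of the share of each tRNA's reads (%) by part, one bar per sample, for the 4 tRNAs with at least 50 reads in every sample. mt_tRNA-Lys-TTT is nearly all 5′ end in both groups, mt_tRNA-Met-CAT is split between 5′ end and internal reads, and the CCA end (red) is broad in mt_tRNA-Ile-GAT.

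All 5 tRNAs had more reads on average in the HFD-F0 group than in the CD-F0 group. To ask whether the diet groups differ, all features of the libraries were tested in one edgeR quasi-likelihood fit, once with the tRNAs summed and once with their parts kept apart, and a feature was called at the thresholds of the study, an unadjusted p of at most 0.05 and an absolute log2 fold change of at least 1. The summed level of the 5 tRNAs was 736, 1796, 1617, 1562 and 1671 RPM in CD-F0 samples 1 to 5. It was 1818, 2415, 2628, 2509 and 2674 RPM in HFD-F0 samples 1 to 5. The groups did not overlap, although HFD-F0 sample 1 stood only just above CD-F0 sample 2, and CD-F0 sample 1 was far below the others. The mean was 1476 ± 423 RPM against 2409 ± 345 RPM (SD, n = 5 each), a log2 ratio of 0.76 (exact permutation p = 0.00794, two-sided, the smallest that 5 against 5 samples allow). Relative to the miRNA reads instead of the clean reads, the log2 ratio was 0.63 (exact permutation p = 0.0714), above the limit of 0.05. The gap was not particular to the 5 tRNAs. All mitochondrial tRNAs together, these 5 included, had 61428 to 137381 reads in the CD-F0 samples and 159642 to 194318 reads in the HFD-F0 samples.

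mt_tRNA-Lys-TTT set most of this sum. Its level was 644, 1679.6, 1489, 1469 and 1555 RPM in CD-F0 samples 1 to 5, and 1621, 2241, 2445, 2203 and 2499.6 RPM in HFD-F0 samples 1 to 5. HFD-F0 sample 1 fell below CD-F0 sample 2, and the other 4 HFD-F0 samples lay above all CD-F0 samples. The log2 fold change was 0.64 ± 0.25 (SE, edgeR adjusted p = 0.389), past the unadjusted limit on p and under the fold threshold. Without CD-F0 sample 1, it was 0.47.

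mt_tRNA-Ile-GAT was at 10.7, 19.2, 12.9, 13.2 and 19.5 RPM in the CD-F0 samples and at 34.9, 29.3, 21.6, 38.9 and 28.0 RPM in the HFD-F0 samples. The groups did not overlap, and the HFD-F0 mean was 2.03 times the CD-F0 mean. Its log2 fold change of 0.95 ± 0.22 (SE, edgeR adjusted p = 0.204) lay just under the fold threshold. mt_tRNA-Met-CAT was at 45.5, 55.2, 71.5, 46.9 and 52.2 RPM in the CD-F0 samples and at 109, 94.2, 106, 176 and 70.7 RPM in the HFD-F0 samples. Only HFD-F0 sample 5 fell within the CD-F0 range, and HFD-F0 sample 4 was the highest. Its log2 fold change was 0.97 ± 0.24 (SE, edgeR adjusted p = 0.222), again just under the fold threshold.

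mt_tRNA-Trp-TCA was at 35.5, 40.9, 43.4, 33.4 and 44.2 RPM in the CD-F0 samples and at 52.7, 50.2, 54.9, 86.0 and 73.7 RPM in the HFD-F0 samples. The groups did not overlap, and the log2 fold change was 0.63 ± 0.22 (SE, edgeR adjusted p = 0.310). mt_tRNA-Asp-GTC, the rarest, had 10, 24, 6, 8 and 25 reads in the CD-F0 samples and 17, 13, 13, 147 and 50 reads in the HFD-F0 samples. The HFD-F0 samples 1 to 3 lay within the CD-F0 range, and HFD-F0 sample 4 alone held 147 of the 240 reads of its group. Among the 5 tRNA totals, it was the only one that passed both thresholds, with a log2 fold change of 1.70 ± 0.77 (SE, edgeR adjusted p = 0.408). This call rested on HFD-F0 sample 4, without which the log2 fold change was 0.64 and the unadjusted p above 0.05, and it was also lost without any 1 of CD-F0 samples 1 to 4 or HFD-F0 sample 5. An exact permutation test of its log2 RPM gave p = 0.167 (two-sided).

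**Figure D2:**
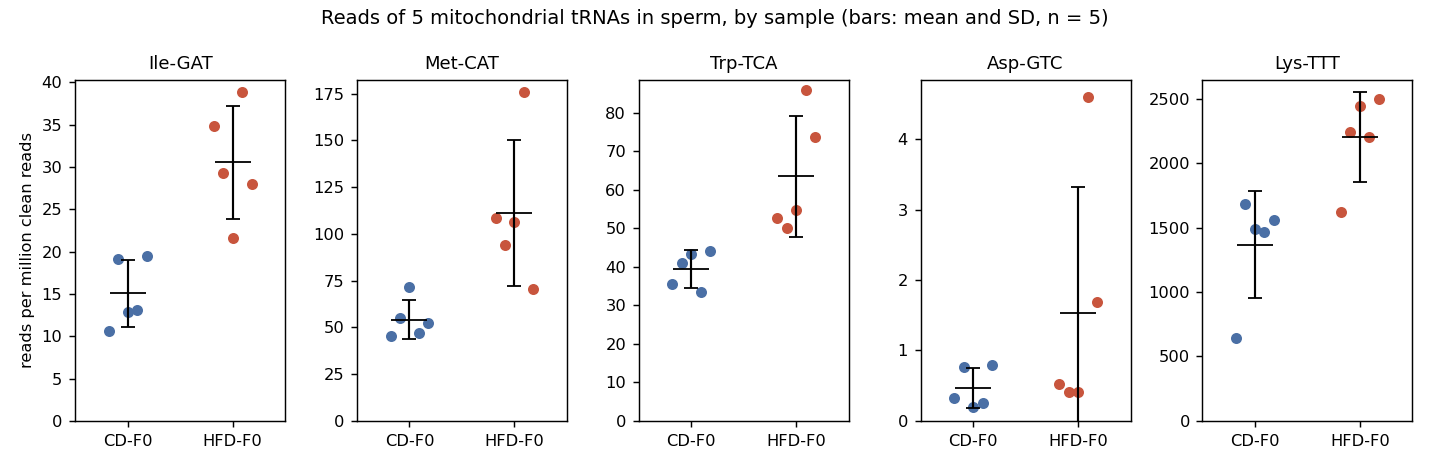
RPM of each of the 5 tRNAs in each CD-F0 (blue) and HFD-F0 (red) sample, with the mean and SD of the 5 samples; each panel has its own scale from 0, and the lower SD bar of Asp-GTC in the HFD-F0 group is clipped at 0. The groups do not overlap for Ile-GAT and Trp-TCA, overlap by 1 HFD-F0 sample for Met-CAT and Lys-TTT, and for Asp-GTC the HFD-F0 mean is drawn up by sample 4.

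Of the 5 tRNA totals, 1 passed both thresholds upward and none downward, against a background of 0.936% called upward among the 641 features of that fit. This call was mt_tRNA-Asp-GTC, which had only 6 and 8 reads in CD-F0 samples 3 and 4. The count of calls is therefore no measure of the 5 tRNAs as a set. At a p of at most 0.05 alone, all 5 were higher in the HFD-F0 group, against 6.55% of all features. The median log2 fold change of the 5 totals was 0.95, and that of all 641 features was -0.04. In 2 of the 5 (mt_tRNA-Ile-GAT and mt_tRNA-Trp-TCA), all HFD-F0 samples lay above all CD-F0 samples in RPM, which 2.96% of the features did. None of the 5 passed an adjusted p of 0.05 with edgeR's quasi-likelihood test, where 5 had an unadjusted p of at most 0.05. DESeq2 gave 2 with an adjusted p under 0.05 (mt_tRNA-Ile-GAT and mt_tRNA-Met-CAT), and edgeR's exactTest gave 1 (mt_tRNA-Ile-GAT).

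Among the parts, the CCA end of mt_tRNA-Ile-GAT, the 5′ end of mt_tRNA-Met-CAT and the internal reads of mt_tRNA-Asp-GTC were called, all higher in the HFD-F0 group. All 20 parts of the 5 tRNAs had reads in at least 1 sample, 11 of them passed the filter on low counts, and 9 did not enter the fit. Of the 11, 3 passed both thresholds upward and none downward, where 2.09% of the 814 features of that fit were called upward. The 3 include the internal reads of mt_tRNA-Asp-GTC, with only 8, 5 and 8 reads in CD-F0 samples 1, 3 and 4. At p alone, 8 of the 11 were higher in the HFD-F0 group, against 6.14% of all features. The median log2 fold change was 0.78 over the 11 parts and -0.01 over the 814 features. With edgeR's quasi-likelihood test none of the 11 had an adjusted p under 0.05, whereas both DESeq2 and exactTest gave 2, the CCA end of mt_tRNA-Ile-GAT and the 5′ end of mt_tRNA-Met-CAT.

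The CCA end of mt_tRNA-Ile-GAT stood at 1.22, 3.45, 1.29, 1.78 and 0.990 RPM in the CD-F0 samples and at 7.16, 5.34, 5.62, 4.60 and 5.21 RPM in the HFD-F0 samples. Every HFD-F0 sample was above every CD-F0 sample. The log2 fold change was 1.58 ± 0.31 (SE, edgeR adjusted p = 0.0850), and the adjusted p ranged from 0.000184 to 0.695 over the alternatives. The internal reads of mt_tRNA-Ile-GAT were at 9.14, 15.1, 11.6, 10.9 and 17.8 RPM against 27.2, 23.2, 15.5, 33.1 and 22.0 RPM. Only HFD-F0 sample 3 fell within the range of the CD-F0 samples, and the log2 fold change was 0.82 ± 0.24 (SE, edgeR adjusted p = 0.225). Its 5′ ends were rare, with 0 to 27 reads per sample, and their log2 fold change of 0.46 ± 0.67 was smaller than its error.

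The 5′ end of mt_tRNA-Met-CAT was at 18.6, 26.3, 36.2, 26.2 and 27.9 RPM in the CD-F0 samples and at 60.6, 56.1, 69.6, 96.0 and 27.4 RPM in the HFD-F0 samples. HFD-F0 sample 5 lay in the middle of the CD-F0 samples, and the other 4 lay above all of them. The log2 fold change was 1.11 ± 0.29 (SE, edgeR adjusted p = 0.224), and without HFD-F0 sample 4 it was 0.87, under the fold threshold. The internal reads of mt_tRNA-Met-CAT were at 26.7, 28.4, 34.8, 20.6 and 24.0 RPM against 48.0, 38.1, 36.5, 78.6 and 42.9 RPM. Here the groups did not overlap, and the log2 fold change was 0.78 ± 0.24 (SE, edgeR adjusted p = 0.240).

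The internal reads of mt_tRNA-Trp-TCA, its largest part, were at 27.3, 31.7, 31.3, 27.8 and 36.8 RPM in the CD-F0 samples and at 42.1, 39.9, 46.3, 65.6 and 58.4 RPM in the HFD-F0 samples, with no overlap. The log2 fold change was 0.62 ± 0.20 (SE, edgeR adjusted p = 0.250). The 5′ ends overlapped between the groups, with 8.02, 9.21, 12, 5.40 and 7.19 RPM against 10.6, 10.2, 7.77, 17.3 and 14.9 RPM, and their log2 fold change was 0.47 ± 0.27 (SE, edgeR adjusted p = 0.573). The CCA ends of mt_tRNA-Trp-TCA did not pass the filter. They had 4, 0, 3, 6 and 8 reads in the CD-F0 samples and 1, 4, 26, 94 and 14 reads in the HFD-F0 samples, so that HFD-F0 sample 4 held most of them.

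For mt_tRNA-Asp-GTC the internal reads (8, 14, 5, 8 and 24 reads in the CD-F0 samples, 13, 13, 10, 130 and 48 in the HFD-F0 samples) followed its total, with a log2 fold change of 1.79 ± 0.77 (SE, edgeR adjusted p = 0.430). As for the total, HFD-F0 sample 4 was highest, and without it the log2 fold change was 0.74 and the unadjusted p above 0.05. The call was also lost without any 1 of CD-F0 samples 1 to 4 or HFD-F0 sample 5. Its CCA ends had at most 10 reads in a sample, its 5′ ends were found in 2 samples and its 3′ ends in 1.

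None of the parts of mt_tRNA-Lys-TTT reached the fold threshold. Its 5′ ends were at 606, 1590.2, 1427, 1401 and 1480.3 RPM in the CD-F0 samples and at 1519, 2152, 2351, 2115 and 2392 RPM in the HFD-F0 samples. Only HFD-F0 sample 1 lay within the range of the CD-F0 samples, and the log2 fold change was 0.63 ± 0.24 (SE, edgeR adjusted p = 0.376). Its CCA ends, at 3.42, 7.95, 2.87, 6.29 and 6.55 RPM against 12.5, 9.52, 10.4, 12.3 and 9.17 RPM, did not overlap between the groups. Their log2 fold change was 0.90 ± 0.27 (SE, edgeR adjusted p = 0.225). For internal reads of this tRNA, the log2 fold change came to 0.41 ± 0.20 (SE, edgeR adjusted p = 0.477), past neither threshold, with 34.5 to 81.3 RPM among the CD-F0 and 76.3 to 98.4 RPM among the HFD-F0 samples.

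**Figure D3:**
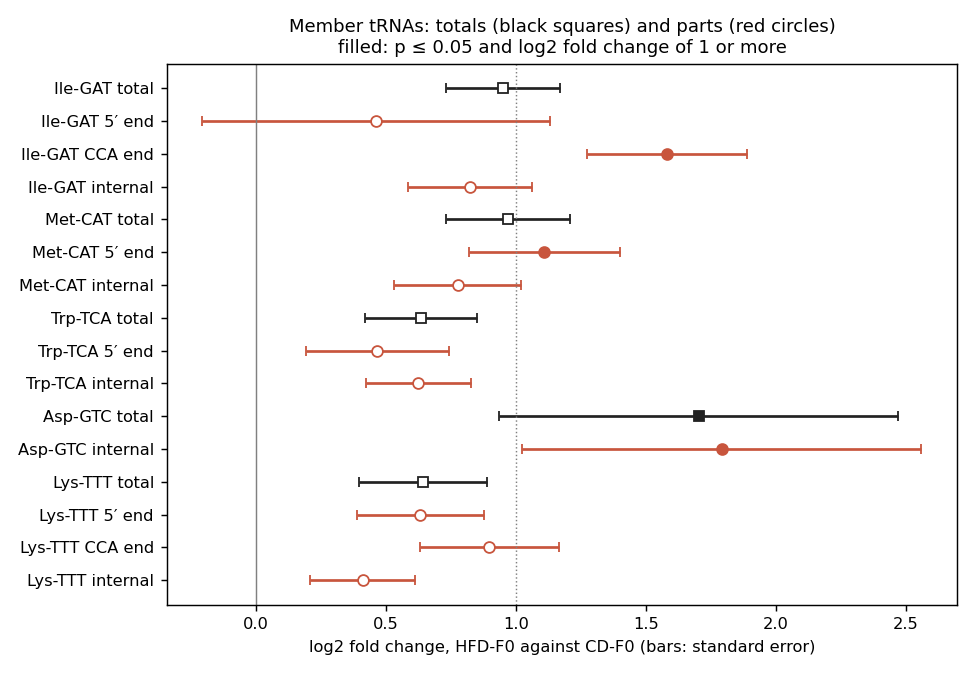
Log2 fold change of the HFD-F0 against the CD-F0 group with its standard error for the 5 tRNA totals (black squares) and the 11 parts that passed the filter (red circles); filled symbols passed both thresholds, and the dotted line marks a log2 fold change of 1. All 16 values are above 0, from 0.41 to 1.79, and the bars of Asp-GTC are the widest.

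CCA ends are split in the files into reads that matched the mouse genome and reads that did not. The authors allowed 1 mismatch in the alignment. Of the CCA-end reads over all samples, 55.2% did not match the genome in mt_tRNA-Ile-GAT, 70.6% in mt_tRNA-Met-CAT, 78.1% in mt_tRNA-Trp-TCA, 47.8% in mt_tRNA-Asp-GTC and 86.8% in mt_tRNA-Lys-TTT. All reads of 5′ and 3′ ends without CCA matched the genome in each of the 5 tRNAs. The internal reads that did not match made up 1.43% to 7.33%.

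The diet groups did not overlap in the unmatched CCA ends of mt_tRNA-Ile-GAT and mt_tRNA-Lys-TTT, and overlapped in those of the other 3 tRNAs. No share over the unmatched CCA ends of other tRNAs was taken, so this count has no background beside it. For mt_tRNA-Ile-GAT, the unmatched CCA ends were 12, 43, 9, 15 and 28 reads in the CD-F0 samples and 77, 123, 85, 142 and 104 reads in the HFD-F0 samples. Their mean was 0.683 ± 0.443 RPM against 3.37 ± 0.845 RPM (SD, n = 5 each). The groups did not overlap. The CCA ends of the same tRNA that matched the genome were 25, 66, 31, 41 and 3 reads against 152, 48, 96, 5 and 50 reads. There the groups overlapped, and CD-F0 sample 5 and HFD-F0 sample 4 had almost none. Since the genome bases after this tRNA differ from CCA at 2 positions and 1 mismatch was allowed, a read with the whole CCA would not match at this gene. Whether the matched reads end within the CCA or match elsewhere was not tested, as the files hold no read sequences. Among genome-matched reads alone, the log2 fold change of the CCA end of mt_tRNA-Ile-GAT was 0.93 with an unadjusted p above 0.05, so its call depends on the unmatched reads.

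In mt_tRNA-Lys-TTT, the unmatched CCA ends were 86, 227, 75, 177 and 189 reads in the CD-F0 samples and 322, 288, 287, 342 and 223 reads in the HFD-F0 samples. The RPM ranges were 2.42 to 7.19 and 7.54 to 10.7, which do not overlap. The matched ones were 18, 24, 14, 21 and 16 reads against 78, 17, 48, 52 and 48 reads, with HFD-F0 sample 2 inside the CD-F0 range. Among genome-matched reads alone the log2 fold change of this CCA end was 1.24, and it passed both thresholds, of which it missed the fold with all reads. The genome after this tRNA also differs from the last 2 letters of CCA, so a read with the whole CCA would not match at this gene. What these matched reads are was not tested. The CCA ends of mt_tRNA-Met-CAT, matched and unmatched together, were 5, 11, 8, 3 and 6 reads in the CD-F0 samples and 2, 1, 0, 20 and 12 reads in the HFD-F0 samples, which overlap.

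**Figure D4:**
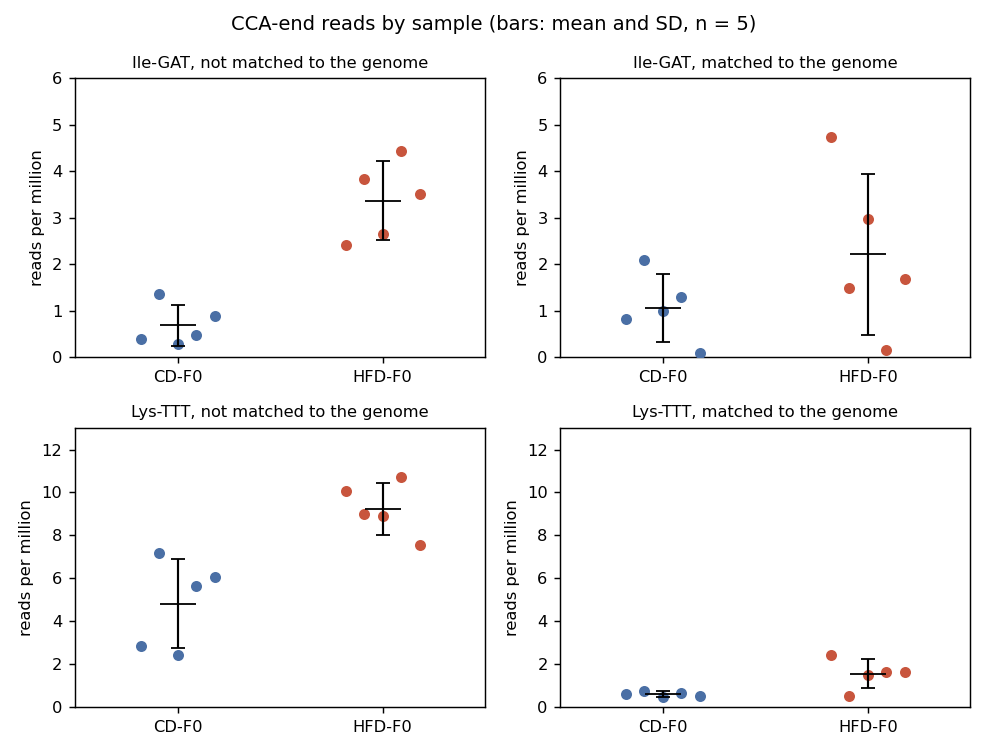
CCA-end RPM in each CD-F0 (blue) and HFD-F0 (red) sample, with mean and SD, for Ile-GAT (upper) and Lys-TTT (lower), split by whether the read matched the genome. The groups do not overlap in the unmatched reads on the left, and overlap by at least 1 sample in the matched reads on the right.

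Summed over the 5 tRNAs, the unmatched CCA ends were 5.75 ± 2.63 RPM in the CD-F0 group and 13.5 ± 2.79 RPM in the HFD-F0 group (SD, n = 5 each), with no overlap. Their log2 ratio was 1.35 (exact permutation p = 0.00794, two-sided). The matched CCA ends were 1.87 ± 0.836 RPM and 4.00 ± 2.10 RPM, and 3 of the 5 HFD-F0 samples lay above all CD-F0 samples. This log2 ratio of 1.08 gave p = 0.0556 (exact permutation, two-sided). It passed 0.05 without CD-F0 sample 2, HFD-F0 sample 2 or HFD-F0 sample 4, with an exact p of 0.0397, 0.0317 and 0.0476. Whether the 2 ratios differ from each other was not tested.

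The shares of the parts in a tRNA's reads were tested apart from its level. Among 285 shares of 72 nuclear and mitochondrial tRNAs with at least 50 reads in every sample, an exact permutation test of the share gave p of at most 0.05 for 9.47%. For the 4 members that reached 50 reads, it did so for 1 of 16 shares, the CCA end of mt_tRNA-Ile-GAT, which made up 11.4%, 18%, 10.0%, 13.5% and 5.08% of its reads in the CD-F0 samples. In the HFD-F0 samples the share was 20.5%, 18.2%, 26.1%, 11.8% and 18.6%. Only HFD-F0 sample 4 lay inside the CD-F0 range, and the mean was 7.43 percentage points higher (exact permutation p = 0.0397, two-sided, adjusted p = 0.452 over the 285 shares). It was above 0.05 without CD-F0 sample 1 or 5 or HFD-F0 sample 2 or 3. A share of 1 in 16 is not above the background. No share of any tRNA had an adjusted p under 0.05, the lowest being 0.283, against 27 at an unadjusted p of at most 0.05 in the same permutation test.

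The 5′ ends made up 90.1% ± 2.31 of the reads of the 5 tRNAs in the CD-F0 group and 90.3% ± 2.09 in the HFD-F0 group (SD, n = 5 each). The difference of 0.291 points was within the spread between samples (exact permutation p = 0.849, two-sided), and turned to -0.719 points without CD-F0 sample 1. In this measure, CD-F0 sample 1 (86.0%) and HFD-F0 sample 1 (87.5%) were the lowest of their groups. In the methionine tRNA, the 5′ share ran from 41.0% to 55.9% among CD-F0 samples and from 38.7% to 65.5% among HFD-F0 samples (exact permutation p = 0.365).

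Set against the other mitochondrial tRNAs, the 5 did not differ between the groups beyond the spread. The ratio of their reads to those of the other 17 was 0.574, 0.756, 0.575, 0.829 and 0.775 in the CD-F0 samples and 0.560, 0.808, 0.965, 0.702 and 0.980 in the HFD-F0 samples. The groups overlapped, and the log2 ratio between them was 0.18 (exact permutation p = 0.349, two-sided). Of the totals of the 9 other heavy-strand tRNAs, none passed both thresholds and 5 were higher in the HFD-F0 group at p alone, with a median log2 fold change of 0.70 (edgeR quasi-likelihood test). Of the 8 light-strand tRNAs, 2 passed upward, with a median of 0.29 over the 8. Among parts, 5 of 23 of the other heavy-strand tRNAs and 3 of 19 of the light-strand tRNAs passed both thresholds upward and none downward. The smallest p among them belonged to mt_tRNA-His-GTG, whose CCA end had a mean of 30.4 ± 11 RPM in the CD-F0 group and 110.5 ± 25.5 RPM in the HFD-F0 group (SD, n = 5 each). Its log2 fold change was 1.78 ± 0.26 (SE, edgeR adjusted p = 0.0168). The CCA ends of mt_tRNA-Thr-TGT (2.04), mt_tRNA-Arg-TCG (1.33) and mt_tRNA-Ala-TGC (2.38) also passed both thresholds (edgeR adjusted p = 0.225 each). Those of mt_tRNA-Phe-GAA, mt_tRNA-Gly-TCC, mt_tRNA-Tyr-GTA and mt_tRNA-Glu-TTC were tested and did not pass. Higher CCA ends in the HFD-F0 group were thus not particular to the 5 tRNAs. The rRNAs 12S-rRNA and 16S-rRNA, which come from the same strand, had log2 fold changes of -0.04 ± 0.13 (SE, edgeR adjusted p = 0.957) and 0.15 ± 0.14 (adjusted p = 0.756).

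Nuclear genes encode separate tRNAs for the same amino acids, which work in the cytosol. The 7 compared here leave out tRNA-iMet-CAT, which only starts translation. The reads of the 5 mitochondrial tRNAs came to 0.00856, 0.0230, 0.0168, 0.0207 and 0.0212 for each read of these 7 nuclear tRNAs in the CD-F0 samples, and to 0.0185, 0.0365, 0.0329, 0.0354 and 0.0309 in the HFD-F0 samples. Only HFD-F0 sample 1 lay within the CD-F0 range, and the log2 ratio was 0.81 (exact permutation p = 0.0317, two-sided). Without any 1 of HFD-F0 samples 2 to 5, p was 0.0635 in the same exact test. With tRNA-iMet-CAT added to the 7, the log2 ratio was 0.82 (exact permutation p = 0.0159). None of the 7 nuclear tRNAs passed both thresholds in either direction, and their median log2 fold change was -0.09. Of these 7, the elongator methionine tRNA tRNA-Met-CAT was the only one with a p of at most 0.05, at 16857 RPM in the CD-F0 and 13783 RPM in the HFD-F0 group on average and with a log2 fold change of -0.38 ± 0.13 (SE, edgeR adjusted p = 0.310). The initiator tRNA-iMet-CAT had a log2 fold change of -0.16 ± 0.42 (SE, edgeR adjusted p = 0.943).

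Within the groups, the 5 tRNAs varied together only in part. After each group's mean was subtracted, Pearson's r of the log2 RPM over the 10 samples ranged from 0.124 (mt_tRNA-Met-CAT with mt_tRNA-Lys-TTT) to 0.842 (mt_tRNA-Trp-TCA with mt_tRNA-Asp-GTC) over the 10 pairs. The second of these pairs shares its highest sample, HFD-F0 sample 4. The features outside the 5 most like their sum on this measure, among 636, were mmu-mir-7210 (r = 0.960, Spearman's rho = 0.758), the piRNA total (r = 0.941, rho = 0.479) and mmu-mir-7234 (r = 0.933, rho = 0.661). Without CD-F0 sample 1 and HFD-F0 sample 1, the samples farthest from the median, r fell to 0.513, 0.429 and 0.431, so these likenesses rest largely on those samples. All values of a sample share its library and its depth.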

How the data were processed

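Small RNA-seq of 10 sperm samples (5 CD-F0, 5 HFD-F0) was analysed. The authors aligned clean reads with SPORTS and Bowtie to mm10 and RNA databases, allowing 1 mismatch, and deposited a summary of estimated counts for each class of RNA and its sub-classes, in which reads with several equal hits were divided. Tool versions, strand use and collapsing by molecular identifier are not given in the sources used here. All 200 values of the 5 tRNAs were whole.

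Genome-matched and unmatched reads were added, absent entries were set to 0, and internal reads were the total minus the 3 ends. Counts were rounded, filtered with filterByExpr and tested over all features with TMM and edgeR 4.0.16 in R 4.3.3 (glmQLFit, glmQLFTest), with Benjamini-Hochberg adjustment. edgeR's exactTest and DESeq2 1.42.0 were alternatives. The fits were tested on simulated data. Log2 RPM of CCA ends, of single tRNAs in permutation tests and of the levels compared in the order and likeness used a pseudocount of 0.01. Exact permutation tests (Python 3.11.15) covered all assignments of 5 and 5 samples, and sign-flip tests all sign changes of 10 samples. Groups came from the labels. No 2 libraries agreed within sampling noise, with a chi-square per degree of freedom of at least 409.9 in the 45 pairs. Intervals and floors cover counting error only.

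The 5 tRNAs, their parts, the other tRNAs and rRNAs and the marker lists were chosen with earlier results of these data known. All 5 members are described with all parts. From the lists of mitochondrial and nuclear tRNAs the called feature of smallest p in each direction was named, and the 3 features most like the sum. The nuclear tRNA-Met-CAT and tRNA-iMet-CAT were named after their values were seen, as were further CCA ends of other mitochondrial tRNAs. Sequences and coordinates come from GENCODE M21 (GRCm38). Nuclear copies of mitochondrial DNA were not analysed here.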

Additional observations from a re-analysis of the deposited data

Results flagged for a closer look

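A value was marked where the highest or the lowest of the 5 samples of a group stood apart from the others by more than 0.71 of the group's range (Dixon's test). Of 64 groups of 5 values looked at, 10 values were marked, many of them dependent on each other, and chance marks about 1 group in 20.

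CD-F0 sample 1 stood apart in the level of mt_tRNA-Lys-TTT, at 644 RPM where the other CD-F0 samples had 1469 to 1679.6 RPM. The same sample was marked for the 5′ ends of mt_tRNA-Lys-TTT, at 606 RPM against 1401 to 1590.2 RPM, and for the summed level of the 5 tRNAs, at 736 RPM against 1562 to 1796 RPM. The 5′ ends made up 86.0% of the reads of the 5 tRNAs in it, against 90.6% to 91.8% in the other CD-F0 samples.

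HFD-F0 sample 4 was marked for the internal reads of mt_tRNA-Met-CAT, at 78.6 RPM against 36.5 to 48.0 RPM in the other HFD-F0 samples. It was also marked for the summed CCA ends that did not match the genome, at 18.4 RPM against 11.4 to 12.9 RPM.

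HFD-F0 sample 1 had the lowest 5′ share of mt_tRNA-Lys-TTT, at 93.7% against 95.7% to 96.2%, and the highest internal share, at 5.52% against 3.41% to 3.94%. In HFD-F0 sample 3 the 5′ share of mt_tRNA-Trp-TCA was 14.2%, where the other 4 samples lay between 20.1% and 20.3%. CD-F0 sample 3 had no 5′ end read of mt_tRNA-Ile-GAT among 400 reads, a share of 0% against 3.08% to 3.86% in the other CD-F0 samples.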

How the results depend on the processing

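All 285 alternative log2 fold changes of single tRNA totals and parts kept their direction, and 257 kept their side of the thresholds. Of 11 tested parts 3 passed, with 6 without a filter on low counts, 8 at p of at most 0.05 alone (added after the data were seen) and 1 to 3 when 1 sample was left out, the lowest without HFD-F0 sample 4. Of the 5 totals 1 passed, with 3 when clean reads set the library size, 2 without a filter, 0 with at least 10 counts in every sample, 0 among tsRNA features only, 5 at p alone and 0 to 2 when 1 sample was left out. One of 16 end shares passed, with 0 when only reads of the 3 ends were counted and 0 to 3 with a sample left out. Leaving out 1 sample gave log2 ratios of 0.52 to 0.86 for the summed level, 1.15 to 1.55 for the unmatched and 0.78 to 1.29 for the matched CCA ends. For the ratio to the other mitochondrial tRNAs the range was 0.10 to 0.30 and for the ratio to the nuclear tRNAs 0.57 to 0.99. The difference in the 5′ share ranged from -0.719 to 1.0 points, and it reversed without CD-F0 sample 1 (-0.719), HFD-F0 sample 2 (-0.0916) or HFD-F0 sample 3 (-0.228). Against miRNA reads the summed level had a log2 ratio of 0.63 (exact permutation p = 0.0714). Without mt_tRNA-Lys-TTT the ratio to the other mitochondrial tRNAs was 0.32 (exact permutation p = 0.0714) and the difference in the 5′ share 3.28 points. The 4 steps in the order of the levels held with genome-matched reads only and without each sample in turn, both added after the data were seen, as was the ratio with tRNA-iMet-CAT. The causes of these changes were not tested.

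The groups share the replicate numbers 1 to 5. Same-numbered samples deviated together weakly at most (r from -0.191 to 0.336 over parts), and 2 of 5 pairs were best matched to their own number. In the summed level of the 5 tRNAs, sample 1 was the lowest of both groups, at 736 RPM in CD-F0 and 1818 RPM in HFD-F0. So few pairs cannot show whether a number marks a pair or a batch. With the replicate block 2 parts, 0 totals and 0 end shares passed. An exact test that swaps the groups within replicate numbers has 32 assignments and cannot go below 0.0625. With this block p was 0.0625 for the summed level (log2 ratio 0.76), the unmatched CCA ends (1.35) and the ratio to the nuclear tRNAs (0.81).

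Depth limits mt_tRNA-Asp-GTC, the CCA ends of mt_tRNA-Met-CAT and mt_tRNA-Trp-TCA and all 3′ ends, where a few reads per sample decide the values. The files give no read lengths or sequences. Nuclear copies of mitochondrial DNA and the strand of the reads were not examined.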
